A study of Mus musculus with 18 samples.

Results

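The genes that encode the proteins of the cytoplasmic ribosome were followed from stem cells to mature cells of the mouse ileal crypt, with and without the histone methyltransferase Setdb1. The set holds every gene of the count tables whose symbol starts with Rpl or Rps followed by a digit, together with Rplp0, Rplp1, Rplp2 and Rpsa, and leaves out pseudogene symbols and the Rps6k kinases. This gave 86 of 32286 gene features, of which 52 carry large-subunit and 34 small-subunit symbols. Among them, 9 are paralogs or genes named after a ribosomal protein (Rpl3l, Rpl7l1, Rpl10l, Rpl22l1, Rpl36al, Rpl39l, Rps27l, Rps27rt and Rps19bp1), and the other 77 are the standard ribosomal protein genes. Expression was measured by droplet single-cell RNA-seq that counts unique molecular identifiers (UMIs) near the 3′ end of transcripts, in 8 libraries of sorted GFP+ crypt cells, 2 in each of 4 groups. In the first experiment, mice with the Lgr5-GFP-CreERT2 allele alone (Lgr5+ WT) served as controls for mice that also carried floxed Setdb1, Lgr5-GFP-CreERT2/Setdb1lox/lox (Lgr5+ Setdb1-KO). The second added the nTnG reporter, which marks recombined cells and their progeny with nuclear GFP, to both genotypes (lineage-traced WT and lineage-traced Setdb1-KO). All mice, controls included, were C57Bl6 males of 60 to 65 days that carried the Cre in the Lgr5 locus and received 70 mg/kg tamoxifen 5 days before analysis. The Lgr5-driven Cre acts in a mosaic of stem cells and their offspring, so the Setdb1-KO libraries can hold cells that kept the gene. In the Lgr5+ sort the paper describes the mature cell types as co-purifying non-GFP+ cells, which can likewise have kept it. The other 10 samples of the series, from bulk RNA, chromatin mark and chromatin accessibility assays, were not analysed here.

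A ribosome consists of a small subunit, which decodes the mRNA, and a large subunit, which forms peptide bonds, and each ribosomal protein is needed in about the same number of copies. Ribosomal protein mRNAs are among the most abundant of growing cells, and their translation is coordinated through a pyrimidine tract at the 5′ end that responds to mTOR signalling. In the crypt, stem cells and rapidly cycling progenitors sit at the base, and enterocytes, goblet, Paneth, enteroendocrine and tuft cells form as cells leave the cycle.

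Kept barcodes, with 1000 (Lgr5+) or 500 (lineage-traced) to 18000 UMIs and under 5% mitochondrial UMIs, numbered 2894 to 11423 per library, and libraries held 16881518 to 81876035 UMIs in all barcodes. The median kept cell had 4686 to 9336 UMIs in the Lgr5+ libraries and 961 to 2085 in the lineage-traced libraries. Epcam, an epithelial surface protein, was at 975 to 2662 CPM (UMIs of a gene as a share of all UMIs, scaled to a sum of 1000000) and the hepatocyte gene Alb at 1.74 CPM or less, although a protocol label mentions livers. Setdb1 was at 11.3 and 9.93 CPM in Lgr5+ WT and at 5.32 and 6.21 CPM in Lgr5+ Setdb1-KO, a fall of 0.85 on the log2 scale (SE 0.14, edgeR adjusted p = 0.0470). It was at 6.11 and 4.21 CPM in lineage-traced WT and at 10.4 and 7.85 CPM in lineage-traced Setdb1-KO, from 34 to 210 UMIs per library. The deletion removes an early exon, which 3′ counting does not read, so these values do not check the genotype.

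The lineage-traced WT libraries stood apart from the other 6. Paneth markers (defensins, lysozyme and other granule genes) made up 34.3% and 31.6% of their kept UMIs, against 7.38% and 4.99% in lineage-traced Setdb1-KO and 0.893% to 3.40% in the Lgr5+ libraries. In barcodes with 10 to 100 UMIs, which hold mostly RNA free in the suspension, ribosomal protein genes took 15.3% of UMIs in both lineage-traced WT libraries, 22.6% and 23.3% in lineage-traced Setdb1-KO, and 31.8% to 37.2% in the Lgr5+ libraries. Barcodes whose Paneth-marker share was near that of the free RNA were left out of all cell classes, and they numbered 18.4% and 58.7% of kept barcodes in lineage-traced WT, 5.13% and 13.8% in lineage-traced Setdb1-KO, and 1.35% to 1.95% in the Lgr5+ libraries. Library pairs shared 3 to 34 kept barcodes.

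Cells were classed by their share of marker UMIs, and the classes are named stem-like, dividing-like, enterocyte-like and so on after those markers. The minimum share was raised where the free RNA of a library held many of the markers, so it was not equal in the genotypes. For Paneth-like cells it was 4647 and 4983 per 10000 UMIs in lineage-traced WT and 2038 and 3092 in lineage-traced Setdb1-KO, for enterocyte-like cells 147 and 192 against 100.2 and 100, and for stem-like cells of the Lgr5+ experiment 32.4 and 32.1 in WT against 20 and 20 in Setdb1-KO. Results that moved when the highest minimum of an experiment was used in each of its libraries are given with that value. Stem-like cells of the Lgr5+ libraries held 5456 to 8894 CPM of the 12 stem markers such as Lgr5 and Olfm4, and enterocyte-like cells 141 to 322 CPM of them. Stem-like cells were chosen by these markers, so their own value does not check the class. Because a CPM is a share of all UMIs, fewer ribosomal protein transcripts per cell and more of other transcripts cannot be told apart. The edgeR fits scale each sum of cells by the trimmed mean of M values (TMM), which resets the level to that of the bulk of genes.

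The 5′ ends of the genes were read from RefSeq (build GRCm38.p6), since a shared pyrimidine tract is the best-known common feature of this family. A pyrimidine run was counted as at least 8 unbroken letters that were each C or T, read on the transcribed strand only. In the 30 bases centred on the most upstream annotated start, 25 of the 66 genes with an entry (37.9%) held such a run. The same held for 3202 of 27025 genes in the table (11.8%). The run reached to or past the start in 19 of these 25 genes and in 1856 of the 3202, and lay wholly upstream of the transcript in the others. The median longest run was 6 letters over the ribosomal protein genes, 5 over their 9 paralogs and 4 over all genes. The windows of Rps6 and of 3 paralogs with their parents are shown, because these pairs differ in the results that follow. Capitals mark the longest pyrimidine run, and the transcript starts at base 16. Where runs tie the first is marked, as in Rpl22, whose equally long later run lies within the transcript.
Rps6, chr4:86857353-86857382, minus strand: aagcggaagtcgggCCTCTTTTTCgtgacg
Rps27, chr3:90213634-90213663, minus strand: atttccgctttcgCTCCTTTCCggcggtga
Rps27l, chr9:66946071-66946100, plus strand: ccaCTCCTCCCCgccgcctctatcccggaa
Rpl22, chr4:152324421-152324450, plus strand: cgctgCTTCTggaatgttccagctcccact
Rpl22l1, chr3:28805493-28805522, plus strand: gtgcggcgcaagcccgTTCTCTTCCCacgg
Rpl36a, chrX:134585639-134585668, plus strand: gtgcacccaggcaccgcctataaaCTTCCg
Rpl36al, chr12:69184053-69184082, minus strand: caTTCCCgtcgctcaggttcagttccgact
Rps6, the small-subunit protein phosphorylated by S6 kinases, and the paralog Rpl22l1 had the longest of these runs, at 10 letters. Rps27 and Rps27l each held 9, but at bases 14 to 22, across the start, in Rps27 and at bases 4 to 12, upstream of it, in Rps27l. Rpl36a and Rpl36al each held 5, at bases 25 to 29, within the transcript, and at bases 3 to 7, upstream of it.

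Ribosomal protein transcripts took a larger share of UMIs in stem-like cells than in any differentiated class of the Lgr5+ experiment. In stem-like cells the 2 WT libraries had shares of 36.3% and 39.0%, and the 2 Setdb1-KO libraries of 38.6% and 38.5%. In dividing-like cells, marked by mitosis genes such as Mki67, it was 31.7% and 33.9% in WT and 32.2% and 33.0% in Setdb1-KO. Every library was lower in its dividing-like than in its stem-like cells.

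Enterocyte-like cells held 23.4% and 25.7% in WT and 23.9% and 25.9% in Setdb1-KO. Within them, the cells with villus-top markers such as Apoa4, which numbered 19 to 81 per library, were at 12.9% and 15.1% in WT and at 13.7% and 16.2% in Setdb1-KO, and the remaining enterocyte-like cells were at 24.2% to 26.7%. The share was thus lower again in the most mature enterocytes of each of the 4 libraries. Tuft-like cells, the chemosensory cells, held 24.0% and 27.3% in WT and 22.8% and 27.4% in Setdb1-KO. Goblet-like cells, the mucus producers, held 19.7% and 23.9% in WT and 21.5% and 23.1% in Setdb1-KO, and enteroendocrine-like cells, the hormone producers, held 20.0% and 22.8% in WT and 17.0% and 21.8% in Setdb1-KO. The ranges of tuft-like and goblet-like cells overlapped in this share, although each library was higher in its tuft-like cells. Goblet-like and enteroendocrine-like ranges overlapped too. There the first WT library was higher in its enteroendocrine-like cells and the other libraries in their goblet-like cells. Paneth-like cells were lowest, at 10.3% and 13.0% in WT and 8.25% and 6.89% in Setdb1-KO, from 14 to 221 cells per library, and were not fitted because a library had fewer than 20. Their minimum marker share was 1000 per 10000 UMIs in both WT libraries and 1204 and 1620 in Setdb1-KO, so the genotypes were not held to equal limits.

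**Figure D1:**
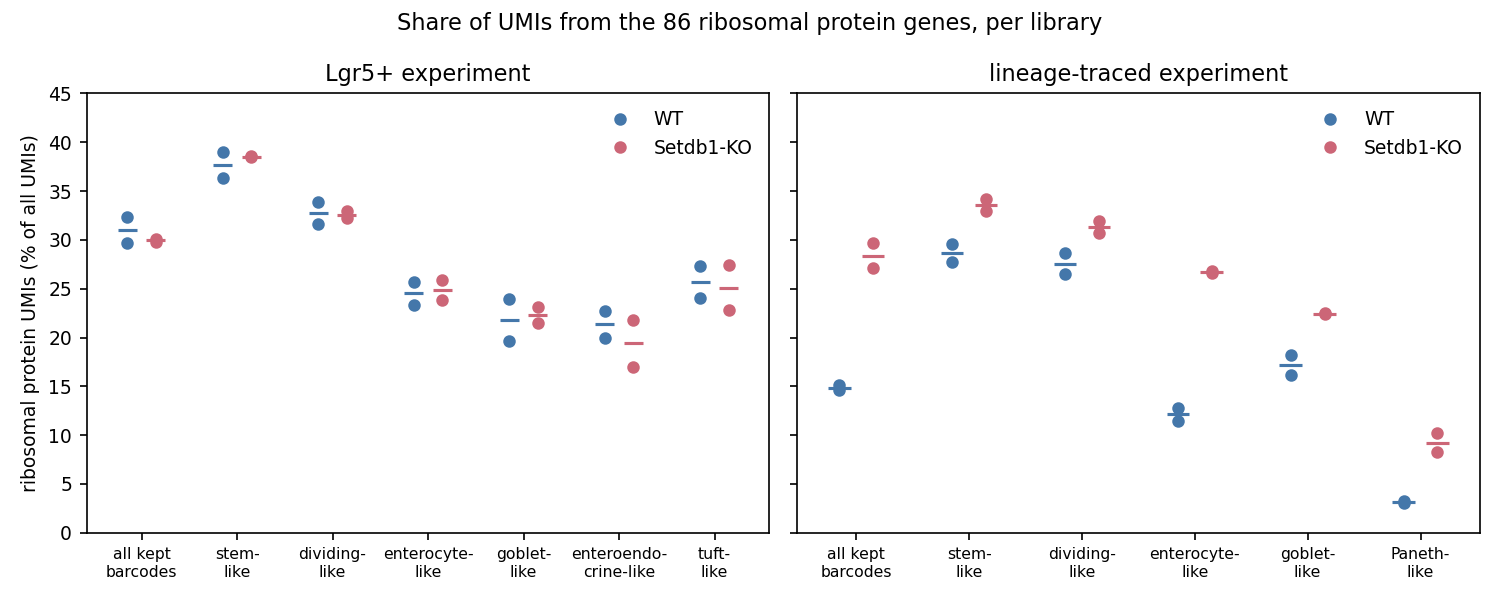
Share of UMIs from ribosomal protein genes (percent, y axis) in each cell class (x axis) of the Lgr5+ (left) and lineage-traced (right) experiments. Each point is 1 library and the short bars are means of the 2 libraries of a genotype. In the Lgr5+ experiment the genotypes overlap in each fitted class and stem-like cells are highest, at 36.3% to 39.0%. In the lineage-traced experiment each Setdb1-KO point lies above both WT points of its class.

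The fall was spread over almost the whole family. Of the 86 genes, 83 passed the filter on low counts, and Rpl3l, Rpl10l and Rpl39l did not, with 1, 1 and 3 UMIs in all 8 libraries. In Lgr5+ WT, 77 of 83 were lower in enterocyte-like than in stem-like cells (edgeR adjusted p under 0.05; 28.8% of all 11185 genes tested were called lower) and 2 were higher (29% of all genes), with a median log2 fold change of -0.39. In goblet-like cells 77 were lower and 1 higher (28.4% of 11480 genes were lower and 28.4% higher), with a median of -0.63. In tuft-like cells 80 were lower and none higher (13.2% of 10937 genes were lower), with a median of -0.77. All 83 were lower in enteroendocrine-like cells (20.2% of 11863 genes), with a median of -1.33. The fall was smallest in dividing-like cells, where 75 were lower and 4 higher (18.3% of 11786 genes were lower and 21.4% higher) with a median of -0.19. A total of 73 genes were called lower in each of the 5 classes, and the same count over all genes was not made. Leaving out Lgr5+ WT replicate 1 reduced the tuft-like count from 80 to 39.

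Scaling matters for the size of these differences. With the library total in place of TMM, the median over all genes shifted by -0.29 in enterocyte-like, -0.18 in goblet-like, +0.55 in enteroendocrine-like and +0.25 in tuft-like cells, and the ribosomal protein medians were -0.62, -0.79, -0.80 and -0.52. The direction was the same under either scaling in these 4 classes. Large- and small-subunit genes moved by similar amounts. The 46 standard large-subunit and 31 standard small-subunit genes had medians of -0.37 and -0.42 in enterocyte-like, -0.62 and -0.72 in goblet-like and -1.32 and -1.37 in enteroendocrine-like cells of Lgr5+ WT. Genes with and without a pyrimidine run of 8 or more anywhere in the window also had close medians, at -0.40 over 25 genes with and -0.41 over 38 genes without a run in enterocyte-like cells, and -0.64 and -0.68 in goblet-like cells. Whether the mRNAs begin at these annotated starts was not tested, so this split does not sort genes by a tract at their 5′ end.

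**Figure D2:**
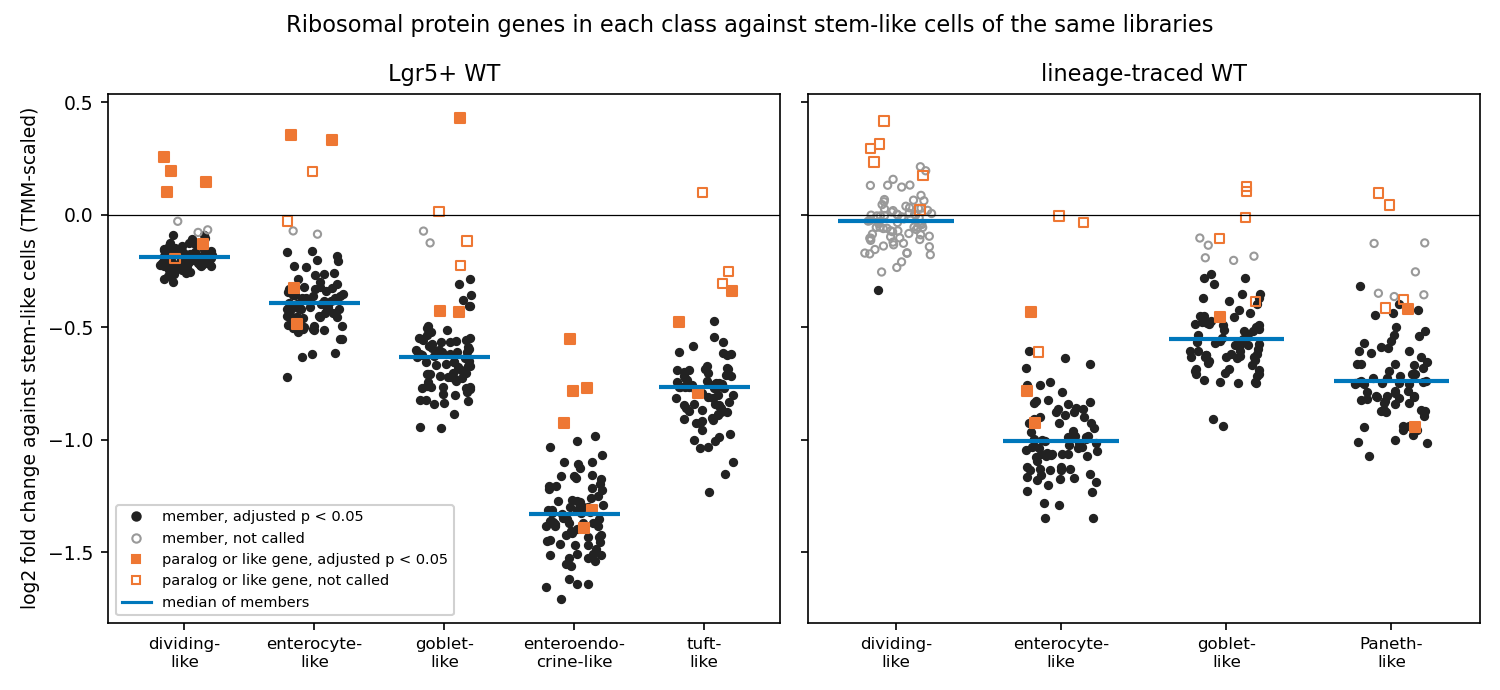
Log2 fold change of each ribosomal protein gene in a class against stem-like cells of the same libraries (y axis, edgeR with TMM scaling), by class (x axis), for Lgr5+ WT (left) and lineage-traced WT (right). Each point is 1 gene (squares are paralogs or genes named after a ribosomal protein, filled symbols passed an adjusted p under 0.05) and horizontal lines are medians over genes. In Lgr5+ WT the medians run from -0.19 in dividing-like to -1.33 in enteroendocrine-like cells, and the filled symbols above 0 are all squares.

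Among the small-subunit genes, Rps20 and Rps2 were among the 5 lowest in 3 of the 5 classes. Rps20, a protein of the small-subunit head, was at 8796 and 9142 CPM in WT and 8654 and 8997 CPM in Setdb1-KO stem-like cells, and at 4799 and 5160 CPM in WT and 4641 and 5391 CPM in Setdb1-KO enterocyte-like cells. The stem-like and enterocyte-like values did not overlap in the 4 libraries, and the WT log2 fold change was -0.62 (SE 0.06, edgeR adjusted p = 5.32e-06). Rps2, a protein at the mRNA entry channel, was at 7081 to 7254 CPM in the 4 stem-like sums. In tuft-like cells it was at 3517 and 3690 CPM in WT and 2913 and 3936 CPM in Setdb1-KO, and its WT log2 fold change was the lowest of that class at -1.23 (SE 0.13, edgeR adjusted p = 2.22e-07).

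Rpsa, a small-subunit protein also described as a laminin receptor precursor, stood at 7229 and 7763 CPM in WT and 6631 and 6222 CPM in Setdb1-KO stem-like cells. Its enterocyte-like values were 4175 and 4540 CPM in WT and 3498 and 3711 CPM in Setdb1-KO. The WT log2 fold change was -0.55 (SE 0.06, edgeR adjusted p = 1.87e-05) in enterocyte-like and -0.84 (SE 0.09) in goblet-like cells, in both classes among the 5 lowest. At the other end, Rps29 (-0.17) and the very short large-subunit protein gene Rpl41 (-0.18) were among the smallest called falls in enterocyte-like cells.

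Of the large-subunit genes, Rpl12, whose protein sits at the base of the factor-binding stalk, was at 3189 and 3470 CPM in WT and 3406 and 3311 CPM in Setdb1-KO stem-like cells and at 1553 and 1910 CPM in WT and 1789 and 1931 CPM in Setdb1-KO enterocyte-like cells. It had the lowest WT log2 fold change of the family in enterocyte-like (-0.72, SE 0.07, edgeR adjusted p = 3.44e-06) and enteroendocrine-like cells (-1.71, SE 0.17, edgeR adjusted p = 1.23e-07). Rplp0, Rplp1 and Rplp2, the acidic proteins that form the stalk itself, fell by 0.38, 0.45 and 0.36 on the log2 scale in enterocyte-like cells and by 1.52, 1.47 and 1.31 in enteroendocrine-like cells. The 3 stalk genes were near the family medians of -0.39 and -1.33 in both classes.

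Rpl5 and Rpl11, which bind 5S rRNA and, as that complex, the p53 regulator Mdm2, fell by 0.52 (SE 0.07) and 0.30 (SE 0.06) in enterocyte-like and by 0.62 and 0.54 in goblet-like cells of Lgr5+ WT. Rps6 was at 1679 and 1639 CPM in WT and 2069 and 1703 CPM in Setdb1-KO stem-like cells and at 1048 to 1182 CPM in the 4 enterocyte-like sums. It fell by 0.42 (SE 0.08, edgeR adjusted p = 6.60e-04). Rps27a, which is made as a fusion with ubiquitin, also fell by 0.42. Of the proteins studied for effects on particular mRNAs, Rpl10a fell by 0.51, Rps25 by 0.33 and Rpl38 by 0.23 in enterocyte-like cells. Rpl38 (-0.31) and Rpl4 (-0.29), a protein that lines the exit tunnel, had the smallest called falls in goblet-like cells.

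The genes called higher in a class than in stem-like cells were all paralogs or genes named after a ribosomal protein. Rpl36al, an autosomal near-copy of the X-linked large-subunit gene Rpl36a, was at 1372 and 1349 CPM in WT and 1409 and 1473 CPM in Setdb1-KO stem-like cells. It was at 1485 and 1481 CPM in WT and 1473 and 1488 CPM in Setdb1-KO enterocyte-like cells, and at 1678 and 1612 CPM in WT and 1784 and 1685 CPM in Setdb1-KO goblet-like cells. Its goblet-like values lay above all stem-like values, and the WT log2 fold change was 0.43 (SE 0.09, edgeR adjusted p = 9.62e-04; 0.27 with the library total, and adjusted p = 0.0720 without Lgr5+ WT replicate 1). In enterocyte-like cells it was 0.35 (SE 0.06, edgeR adjusted p = 6.84e-04), and 0.12 and not called with the library total.

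Rpl36a was at 2067 and 2222 CPM in WT and 2262 and 2216 CPM in Setdb1-KO stem-like cells and fell to 1099 and 1266 CPM in WT and 1178 and 1226 CPM in Setdb1-KO enterocyte-like cells (log2 fold change -0.63, SE 0.06, edgeR adjusted p = 7.70e-06). The UMIs of Rpl36al were thus 66.4% and 60.7% (WT) and 62.3% and 66.5% (Setdb1-KO) of those of Rpl36a in stem-like cells, 135%, 117%, 125% and 121% in enterocyte-like cells, and 181%, 138%, 163% and 143% in goblet-like cells. The ratio within a library does not depend on the scaling, and it was higher in each differentiated class than in stem-like cells in all 4 libraries. The 2 genes are near-identical in their coding part, and how reads that match both were counted was not tested.

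Rps27l, a paralog of Rps27 known as a p53 target, was at 659 and 770 CPM in WT and 627 and 697 CPM in Setdb1-KO stem-like cells and at 728 and 806 CPM in WT and 696 and 735 CPM in Setdb1-KO enterocyte-like cells. Each library was higher in its enterocyte-like cells, although the ranges overlapped. The WT log2 fold change was 0.33 (SE 0.07, edgeR adjusted p = 0.00214), and it was 0.10 and not called with the library total, and 0.26 and not called (adjusted p = 0.0808) without Lgr5+ WT replicate 1. Its UMIs were 34.6%, 35.6%, 31.1% and 34.9% of those of Rps27 in stem-like cells and 55.6%, 54.2%, 52.5% and 51.9% in enterocyte-like cells. In tuft-like cells the ratio was 38.2%, 32.2%, 35.4% and 35.6%, so it did not stand apart from the stem-like values there.

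In dividing-like cells the 4 genes called higher were Rpl7l1 (0.25, SE 0.05), a factor of large-subunit assembly, Rps19bp1 (0.19, SE 0.06), which binds Rps19 and is not part of the ribosome, Rpl36al (0.14, SE 0.03) and Rps27l (0.10, SE 0.03). All 4 stayed called with the library total. Under DESeq2, Rps19bp1 (adjusted p = 0.226) and Rps27l (adjusted p = 0.116) were not called. Rpl22l1, whose parent Rpl22 binds RNA outside the ribosome, was at 44.3%, 42.2%, 39.9% and 40.1% of the Rpl22 UMIs in stem-like cells and at 58.0%, 51.4%, 52.4% and 51.7% in goblet-like cells. The near-identical Rps27rt stayed at 0.870% to 2.19% of the Rps27 UMIs in all fitted Lgr5+ classes.

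**Figure D3:**
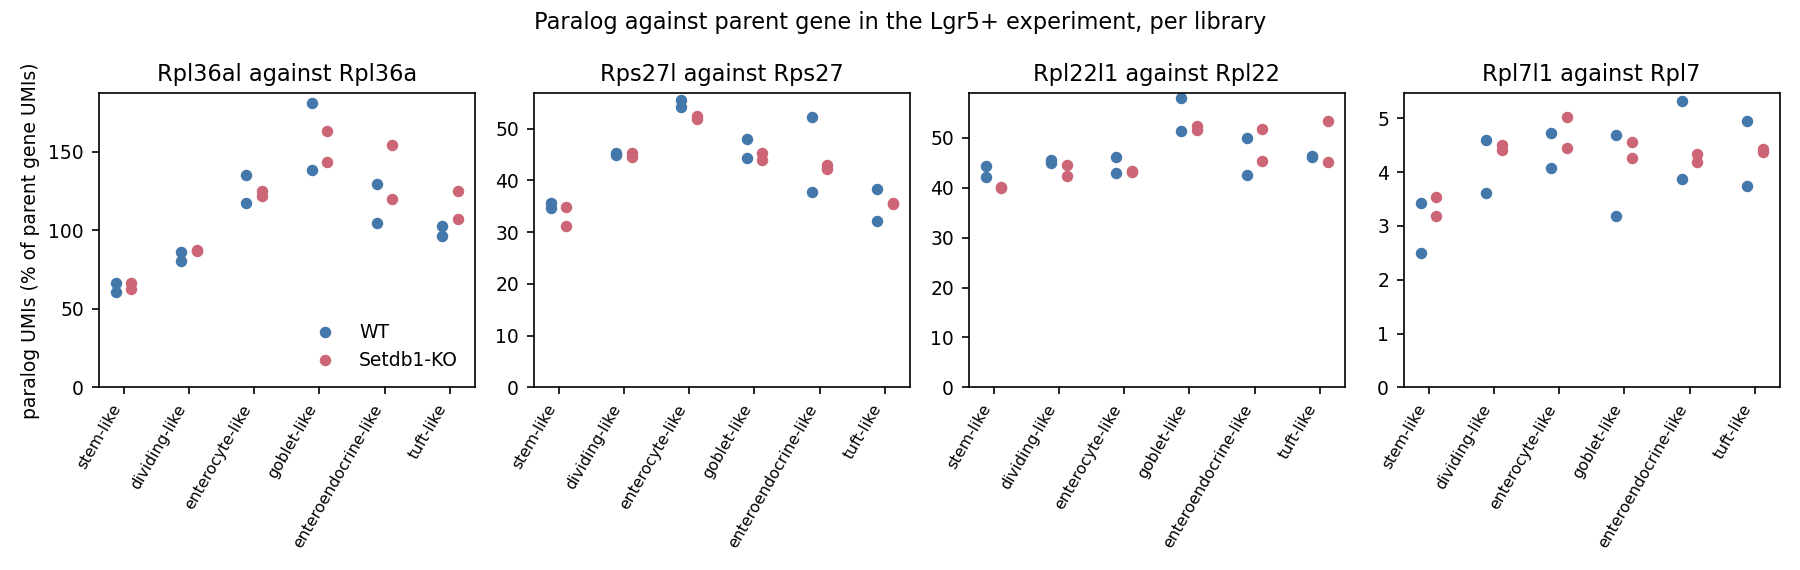
UMIs of 4 paralogs as a percent of the UMIs of their parent gene (y axis) by cell class (x axis), with 1 point for each library. In the Lgr5+ libraries Rpl36al rises from 60.7% to 66.5% of Rpl36a in stem-like cells to 138% to 181% in goblet-like cells, and Rps27l is highest relative to Rps27 in enterocyte-like cells.

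After subtraction of the median ribosomal protein gene in each sum, Rpl36al varied most across the Lgr5+ classes, with an SD of 0.36 on the log2(CPM + 1) scale, followed by Rps19bp1 (0.28), Rps27rt (0.27), Rps27l (0.26) and Rps2 (0.24). Rpl36al stood 1.07 above its stem-like position in goblet-like cells. In the lineage-traced classes the order was Rps27l (0.32), Rpl12 (0.32), Rpl5 (0.30), Rpl4 (0.30) and Rps6 (0.29).

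**Figure D4:**
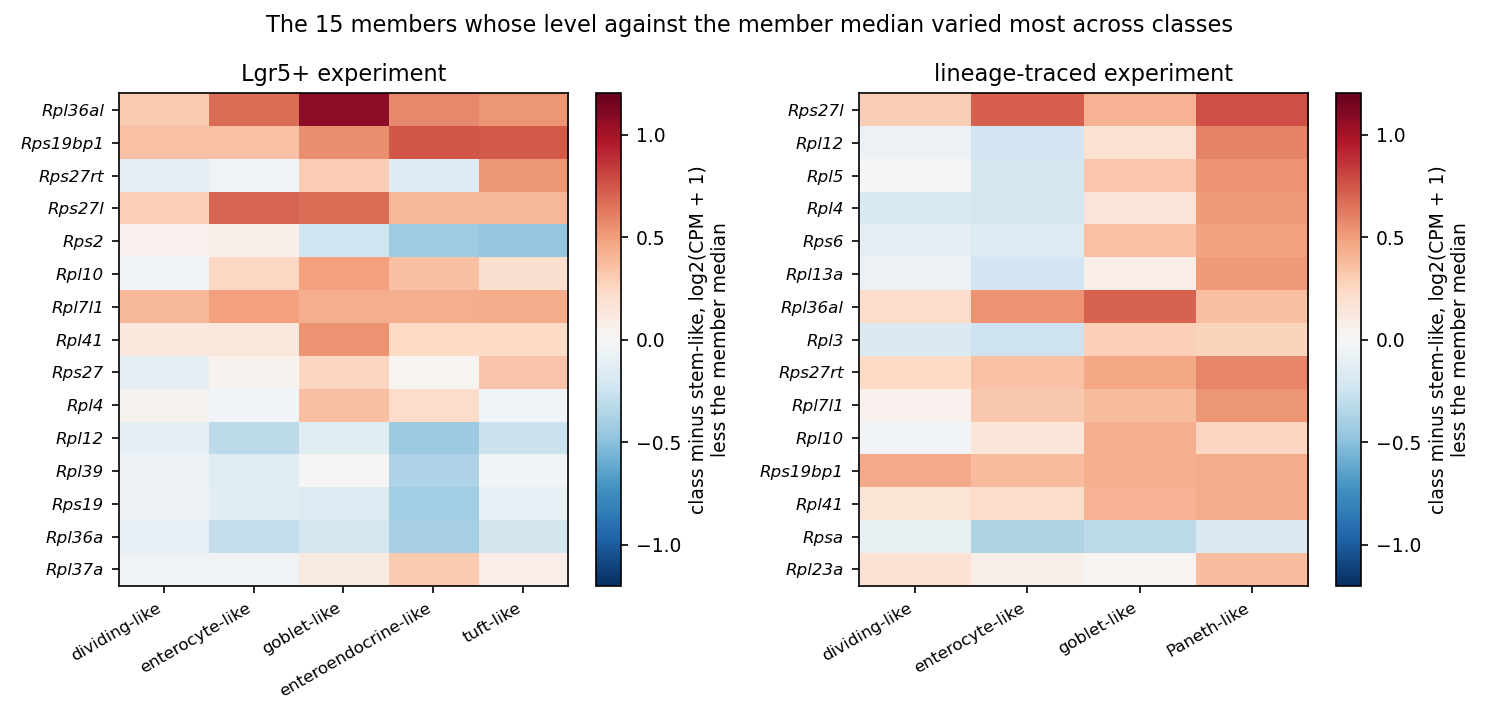
Position of the 15 ribosomal protein genes that varied most across classes in each experiment, relative to the median gene of the family in each class, as the difference from the stem-like position (colour, log2(CPM + 1) units), for the Lgr5+ and lineage-traced experiments. Rpl36al is highest in Lgr5+ goblet-like cells, at 1.07, and Rps2, Rpl12 and Rpl36a are below 0 in Lgr5+ enteroendocrine-like cells.

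The same falls were found in the Lgr5+ Setdb1-KO libraries, whose mature classes can hold cells that kept Setdb1. Whether these cells had lost the gene was not tested. Against stem-like cells, 79 genes were lower and 2 higher in enterocyte-like cells (median -0.45; 30.2% of all genes were called lower), 76 lower and 1 higher in goblet-like cells (-0.65; 28.6%), 83 lower in enteroendocrine-like cells (-1.56; 26.7%), 80 lower in tuft-like cells (-0.85; 17%) and 79 lower and 1 higher in dividing-like cells (-0.29; 18.6%). Rpl36al (0.21) and Rps27l (0.29) were again the genes called higher in enterocyte-like cells, Rpl36al (0.40) in goblet-like cells and Rpl7l1 (0.14) in dividing-like cells. Of all genes in these fits, 63.7%, 63.5% and 45.6% were under an unadjusted p of 0.05 in either direction. The difference between the genotypes in these class effects was tested gene by gene, and neither edgeR nor DESeq2 called a ribosomal protein gene in any of the 5 classes. The background of that test was 0.0179% of genes in enterocyte-like, 0.00871% in goblet-like, 0.00843% in enteroendocrine-like, 0% in tuft-like and 0.305% in dividing-like cells. At an unadjusted p under 0.05, 49 genes differed in dividing-like cells, where the median difference was -0.10 and 8.34% of all genes were under this p, and none in the other 4 classes. The Lgr5+ Setdb1-KO libraries differed from each other in enteroendocrine-like and tuft-like cells. The enteroendocrine-like minus stem-like share was -21.6 points in Setdb1-KO replicate 1, -16.7 in replicate 2, and -16.4 and -16.2 in WT. For tuft-like cells these values were -15.8, -11.1, -12.3 and -11.7.

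Setdb1-KO and WT were then compared directly. In all kept cells of the Lgr5+ experiment the share of ribosomal protein UMIs was 29.7% and 32.4% in WT and 29.8% and 30.1% in Setdb1-KO, a difference of -1.07 percentage points (two-sided exact permutation p = 1). In stem-like cells it was higher in Setdb1-KO by 0.872 points (exact permutation p = 1). With 2 libraries against 2 the smallest p of this test is 0.33, so it could not pass 0.05 for any share.

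No ribosomal protein gene was called between genotypes in the Lgr5+ experiment by edgeR with TMM, the low-count filter, all 4 libraries and no block, either in all cells (1.34% of 13662 genes were called) or in stem-like (1.2%), dividing-like (0.727%), enterocyte-like (0.385%), goblet-like (0.424%), enteroendocrine-like (0.158%) or tuft-like cells (0.0484%). DESeq2 called 2 genes lower in all cells, Rplp0 and Rpsa, and none in the 6 classes. The medians over the 83 genes ran from -0.12 in enteroendocrine-like to 0.08 in stem-like cells. At an unadjusted p under 0.05 there were 2 genes in all cells, 1 in stem-like, 2 in dividing-like, 2 in enterocyte-like and 0 in the other 3 classes, where 5.5% to 17.5% of all genes were under it. The CPM of both Setdb1-KO libraries lay above both WT values for 24 of 83 genes and below them for 3 in stem-like cells, against 16.1% and 28.9% of all genes tested. In all cells the counts were 4 above and 15 below (18.6% and 24.6% of all genes), in dividing-like cells 13 and 11 (18.9% and 23.5%) and in enterocyte-like cells 11 and 4 (19.9% and 20.1%). In goblet-like cells they were 6 and 2 (15.2% and 20.1%), in enteroendocrine-like cells 0 and 8 (17.5% and 16.7%) and in tuft-like cells 3 and 4 (14.6% and 19.3%).

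The 2 genes with the lowest fold changes in all cells were Rplp0 and Rpsa. In dividing-like cells Rplp0 was at 6421 and 6523 CPM in WT and 5818 and 4358 CPM in Setdb1-KO, and Rpsa at 6331 and 6709 CPM in WT and 5226 and 5158 CPM in Setdb1-KO. Neither gene overlapped between genotypes there. In stem-like cells Rplp0 was at 7414 and 7597 CPM in WT and 7227 and 5224 CPM in Setdb1-KO, the second Setdb1-KO library being lower than the other 3. By edgeR the log2 fold change in all cells was -0.39 for Rplp0 (SE 0.16, adjusted p = 0.277) and -0.35 for Rpsa (SE 0.15, adjusted p = 0.283), and neither passed in any class. They passed under some alternatives, and no other gene of the family passed under any alternative run on the Lgr5+ comparisons of genotypes. DESeq2 called both in all cells (adjusted p = 0.0293 for Rplp0 and 0.0312 for Rpsa). In dividing-like cells both were called without the low-count filter (adjusted p = 0.00102 and 0.00266) and without Lgr5+ WT replicate 1 (adjusted p = 0.0259 and 0.00321), and Rpsa with the library total (adjusted p = 0.00926 in dividing-like and 0.0198 in all cells). In tuft-like cells both were called lower by edgeR with the replicate number as a block (adjusted p = 9.61e-05 and 4.57e-05), although these numbers do not establish pairs.

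**Figure D5:**
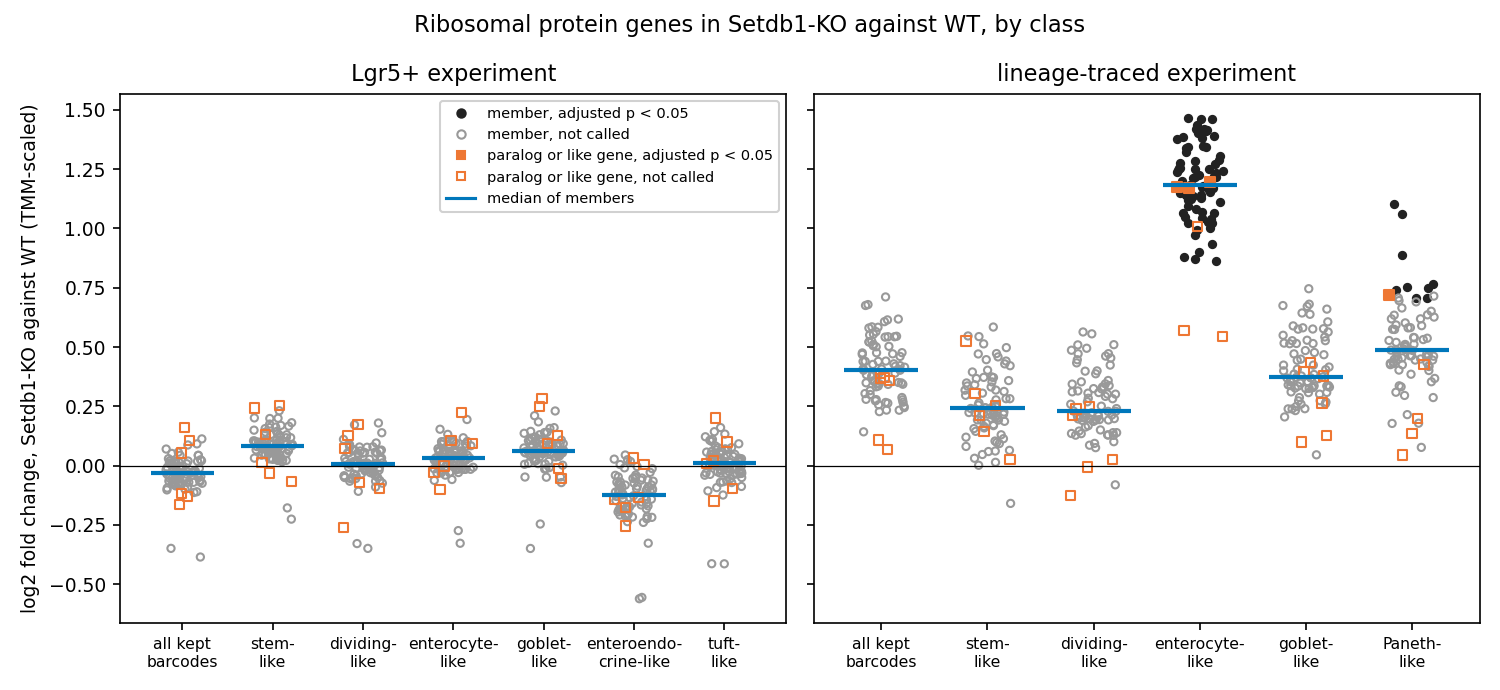
Log2 fold change of each ribosomal protein gene, Setdb1-KO against WT (y axis, edgeR with TMM scaling), by cell class (x axis) in each experiment. Filled symbols passed an adjusted p under 0.05, squares are paralogs or genes named after a ribosomal protein, and horizontal lines are medians over genes. The Lgr5+ medians lie between -0.12 and 0.08, and the lineage-traced medians are above 0 in each class, with 80 called genes in enterocyte-like and 10 in Paneth-like cells.

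In the lineage-traced experiment ribosomal protein transcripts took a larger share in Setdb1-KO than in WT in each class. Over all kept cells the share was 14.6% and 15.1% in WT and 27.1% and 29.7% in Setdb1-KO, a difference of 13.5 points. In stem-like cells it was 29.6% and 27.7% in WT and 33.0% and 34.2% in Setdb1-KO, a difference of 4.90 points. The genotypes did not overlap in any class, and each exact permutation p was 0.33, the smallest this design can give.

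Enterocyte-like cells held 12.8% and 11.5% in WT and 26.8% and 26.7% in Setdb1-KO. Goblet-like cells held 18.2% and 16.2% in WT and 22.5% and 22.4% in Setdb1-KO, and Paneth-like cells, the antimicrobial secretory cells of the crypt base, held 3.29% and 3.06% in WT and 10.2% and 8.31% in Setdb1-KO. With equal minimum marker shares, Paneth-like cells held 3.03% and 3.06% in WT and 5.38% and 5.14% in Setdb1-KO, and enterocyte-like cells 11.6% and 11.5% in WT and 25.2% in both Setdb1-KO libraries. In percentage points the gap between genotypes was larger in enterocyte-like cells than in the other fitted classes. Other values moved with it. Enterocyte-like WT cells carried 72621 and 90904 CPM of Paneth markers against 9779 and 14607 CPM in Setdb1-KO, and after subtraction of free RNA in proportion to these markers the Setdb1-KO minus WT difference was 15.7 points in enterocyte-like cells. In stem-like cells the subtraction left 33.2% and 31.2% in WT and 34.1% and 35.5% in Setdb1-KO. Villus-top cells made up 654 of 1081 and 140 of 235 enterocyte-like cells in WT and 7 of 132 and 16 of 334 in Setdb1-KO. Without them the enterocyte-like shares were 18.2% and 15.3% in WT and 27.1% and 26.9% in Setdb1-KO.

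By edgeR, 80 of 83 genes were higher in Setdb1-KO than in WT enterocyte-like cells (12.9% of 5724 genes were called higher), with a median log2 fold change of 1.18, and none was lower. Rpl35, a protein near the exit of the peptide tunnel, was at 819 and 870 CPM in WT and 2403 and 2134 CPM in Setdb1-KO and had the largest value (1.47, SE 0.35, edgeR adjusted p = 8.79e-04). Rpl14 (1.46), Rpl18 (1.46), Rpl10 (1.44) and Rpl13 (1.42), all of the large subunit, followed, and Rpsa was at 1.41 (SE 0.35). The smallest called values were those of Rpl4 (0.86), Rpl31 (0.87), Rps6 (0.88), Rps14 (0.90) and Rpl7 (0.93). Rps6 was at 251 and 240 CPM in WT and 464 and 411 CPM in Setdb1-KO. The 3 genes not called were Rpl7l1 (0.54), Rps27l (0.57) and Rps27rt (1.01). The count was 20 without the low-count filter and 7 with at least 2000 UMIs per cell. It was 0 without lineage-traced WT replicate 1, 0 without lineage-traced WT replicate 2, and 1 without villus-top cells, where the median was 0.62 and Rpl35 alone was called (0.94, adjusted p = 0.0437).

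By edgeR no gene was called in all cells (8.73% of 12205 genes were called; median over the family 0.40), in stem-like (1.46%; 0.24), dividing-like (1.59%; 0.23) or goblet-like cells (2.08%; 0.37). At an unadjusted p under 0.05 the counts were 0, 3, 0 and 7, against 20.3%, 8.02%, 6.98% and 8.59% of all genes, and DESeq2 called 0 in each. With the library total, which shifted the median of all genes by 0.54 in all cells, 81 genes were called there with a median of 0.92. With a lineage-traced Setdb1-KO library left out, edgeR called genes higher in each of these sets of cells, more of them without the first library. Such a fit leaves 1 library in the group, and no share of all genes is given for it. On the CPM scale both Setdb1-KO libraries lay above both WT libraries for all 83 genes in all cells, where 62.4% of all genes tested did so, and for all 83 in Paneth-like cells, where 81.1% did. The counts were 83 in enterocyte-like (28% of all genes), 73 in goblet-like (19%), 50 in stem-like (18.2%) and 42 in dividing-like cells (14%). The Paneth-marker UMIs given above enter the total behind each WT value.

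In Paneth-like cells 10 of 82 genes were higher in Setdb1-KO (1.77% of 3606 genes were called higher; median 0.49). The largest values were those of Rps26 (1.10, SE 0.24, edgeR adjusted p = 3.33e-04), which contacts the mRNA near the start codon, Rps27 (1.06, SE 0.23), Rps28 (0.89), Rps21 (0.77) and Rps15a (0.75), all of the small subunit. Rps27 was at 169 and 123 CPM in WT and 863 and 406 CPM in Setdb1-KO. The first lineage-traced Setdb1-KO library stood apart for this gene in stem-like cells as well, at 3158 CPM against 1660 and 1448 CPM in WT and 1617 CPM in the second Setdb1-KO library. Over all kept cells Rps26, Rps28 and Rps21 also took a larger part of the UMIs in the first than in the second Setdb1-KO library, and Rps15a did not. Without the first Setdb1-KO library Rps27 was at 0.65 and Rps26 at 0.79 in Paneth-like cells. With equal minimum marker shares 1 gene was called, Rps26 (0.90, edgeR adjusted p = 0.0211). The count of 10 became 82 with the library total, which shifted all genes by 1.03, 25 without the first Setdb1-KO library, and 0 without lineage-traced WT replicate 1 or without lineage-traced WT replicate 2.

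The class differences in the lineage-traced experiment were read within each genotype. In lineage-traced WT, 80 of 83 genes were lower in enterocyte-like than in stem-like cells (median -1.01; 19.6% of 8093 genes were called lower), 73 in goblet-like (-0.55; 12.2%), 73 in Paneth-like (-0.74; 8.57%) and 1 in dividing-like cells (-0.03; 2.37%), the exit-tunnel gene Rpl4 (-0.34). With the library total the Paneth-like median was -3.19, where the median over all genes shifted by -2.41. With doubled marker limits 46 genes were lower in goblet-like cells, and with a class effect shared by both genotypes 17 were lower in enterocyte-like cells. The share of all genes called is not given for either fit. Rpsa had the lowest value in enterocyte-like cells, from 2585 and 2516 CPM in stem-like to 860 and 852 CPM in enterocyte-like cells (-1.35, SE 0.13, edgeR adjusted p = 3.84e-16). Rpl36a was also at -1.35 and Rps20 at -1.29. Rpl36al fell less than any other called gene there, with -0.43 (SE 0.14, edgeR adjusted p = 0.00614), and it was at 0.014 with the shared class effect.

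In lineage-traced Setdb1-KO 3 genes were lower in enterocyte-like than in stem-like cells, against 9.9% of all genes. They were Rpsa (-0.44), Rpl3 (-0.40), at the peptidyl transferase centre, and Rpl12 (-0.38). The 2 called higher, against 15.5% of all genes, were Rpl36al (0.45) and Rps27l (0.43). The median was -0.10. With at least 2000 UMIs per cell, 39 genes were called lower in this comparison, so the count of 3 depends on depth. In goblet-like cells 72 were lower and 1, Rpl36al (0.29), was higher (median -0.43; 18.4% of genes were lower), and in Paneth-like cells 39 were lower (-0.37; 3.15%). In dividing-like cells Rpl3 was lower (-0.30) and Rps27l higher (0.22), where 7.95% of genes were called lower. The share of all genes called higher is not given for goblet-like or dividing-like cells. Under the unadjusted p limit used for the Lgr5+ fits, 46.4% of all genes passed in goblet-like and 30.4% in dividing-like cells, in either direction. With the library total, 69 genes were lower in enterocyte-like cells of Setdb1-KO, with equal minimum marker shares 9 were, and without the first Setdb1-KO library none was lower. Doubled marker limits left 14 lower in goblet-like and 11 in Paneth-like cells, DESeq2 called 23 lower in Paneth-like cells, and there leaving out the first or the second Setdb1-KO library left 14 or 4. In Paneth-like cells 59 were lower with equal minimum marker shares, 59 without the low-count filter, and all 83 with the library total, with a median of -1.89 beside -1.54 over all genes. The library total also gave 25 lower in dividing-like cells. No share of all genes called is given for these alternative fits.

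The class effect itself differed between genotypes for 79 genes in enterocyte-like cells, each higher in Setdb1-KO (edgeR; median difference 0.90; 5.61% of genes were called in that direction). Rps7 (1.08), Rpl36a (1.08), Rplp2 (1.06) and Rpl14 (1.05) were among the largest differences, and Rpl7 (0.59) had the smallest called difference. This count was 5 without the low-count filter, 0 without lineage-traced WT replicate 1 and 1 without lineage-traced WT replicate 2, and villus-top cells were distributed unequally between the genotypes as given above. DESeq2 called 73 genes. By either tool no gene differed in dividing-like (0.15%), goblet-like (0.281%) or Paneth-like cells (0.489%), where 0, 9 and 36 genes were under an unadjusted p of 0.05, against 5.42%, 6.4% and 8.59% of all genes. With the library total in place of TMM, most genes of the family differed in Paneth-like cells. That scaling moved the median of all genes in the Paneth-like fits, as given above. The share of all genes called under it is not given, so the result has no background.

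The genotype effect was also compared between the experiments. In all cells no ribosomal protein gene differed by edgeR (7.58% of 13781 genes were called; median difference 0.46), and in stem-like cells none differed either (0.511% of genes; 0.22), with 1 gene at an unadjusted p under 0.05 in each, against 22% and 9.56% of all genes. With the library total 82 genes differed in all cells, and the share of all genes called under that scaling is not given. Experiment, depth and reporter allele cannot be told apart in this comparison.

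Genes that serve the ribosome were read from lists beside the family. Of 59 ribosome biogenesis genes (rRNA processing and polymerase I factors), 49 fell and 2 rose in Lgr5+ WT enterocyte-like cells against stem-like cells, with a median log2 fold change of -1.27, and 48 fell and 3 rose in goblet-like cells (-0.92). Of all genes tested, 28.8% were called lower and 29% higher in the first of these fits, and 28.4% each way in the second. The nucleolar proteins Ncl (-1.80), Npm1 (-1.73) and Nop56 (-2.34) were among those that fell in enterocyte-like cells. The median over all genes was between -0.06 and 0.02 in these fits, so the list median lay further from it than that of the ribosomal protein genes in both classes. Of 41 translation factors tested, 23 fell and 2 rose in enterocyte-like cells (-0.25), with the elongation factors Eef1a1 at -0.43 and Eef1b2 at -0.66.

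The 3 ribosomal protein genes with other symbols took 0.460% to 1.05% of UMIs. In enterocyte-like cells Rack1, a small-subunit scaffold, fell by 0.44 and Fau, which encodes the small-subunit protein joined to a ubiquitin-like domain, was higher by 0.24 with TMM (edgeR adjusted p = 0.00387), less than the shift of -0.29 that the library total gave in this class. Of 24 growth control genes tested, 8 rose and 4 fell, with Myc at -3.09 and its antagonist Mxd1 at 1.57, and of 11 genes of the 5S RNP and p53 branch, 2 rose and 6 fell. Beside 29% of all genes called higher and 28.8% lower, the 8 growth control genes that rose were near the background, and the 4 that fell and the 2 of the p53 branch that rose were below it. The 78 mitochondrial ribosomal protein genes serve the separate ribosome of that organelle. In enterocyte-like cells of Lgr5+ WT they did not share the direction of the cytoplasmic family. There 49 rose and 1 fell (median 0.40 with TMM, against the shift of -0.29 with the library total). In goblet-like cells 5 rose and 50 fell (-0.36; 28.4% of all genes fell). In enteroendocrine-like cells 64 fell (-0.81; 20.2%), and in dividing-like cells 66 rose (0.29; 21.4% of all genes rose). The enterocyte-like direction was not shared by lineage-traced WT, where the median of these genes was negative and more were called lower than higher. The genes called lower there were near the background, as given under other observations.

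Between genotypes no gene of these lists was called in the Lgr5+ experiment. In lineage-traced enterocyte-like cells 10 of 33 biogenesis genes tested were higher and 1 lower in Setdb1-KO (median 0.70), as were 13 and 2 of 41 translation factors (0.57), 44 and 0 of 75 mitochondrial ribosomal protein genes (1.00) and 2 and 0 of the 3 with other symbols (1.14), where 12.9% of all genes were called higher and 18.7% lower. The villus-top cells and Paneth UMIs given above move with these counts too. Over the 24 library-by-class sums of the Lgr5+ experiment, the genes outside the family whose log2 CPM followed its mean most closely were Rack1 (Pearson r = 0.97), Eef1b2 (0.97), Eif3i (0.94), Hes1 (0.94) and Nop10 (0.93), of 7089 genes. Over the 20 lineage-traced sums they were Eef1b2, Eif3c, Eif3i, Aimp1 and Ten1 (0.99 each), of 5948 genes. These sums share libraries and class marker RNA, and the r values are a description across sums.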

How the data were processed

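Droplet single-cell RNA-seq was available for 8 libraries of FACS-sorted GFP+ ileal crypt cells. The authors deposited raw UMI counts per gene and barcode, made with Cell Ranger against mm10 per the submitters' processing notes, which name Cell Ranger 6.1.1 and Seurat 5.0.3. The matrices hold all barcodes, empty ones included. UMIs were not deduplicated further, and no length scaling applies to 3′ counts, so levels were not compared between genes. The study describes separate biological replicates, which the labels do not tie to animals, so the p-values measure the spread between these libraries.

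The genes and lists were chosen with earlier results of these data known. The lists held 59 ribosome biogenesis genes, 42 translation factors, 25 growth control genes, 12 genes of the 5S RNP and p53 branch, 78 mitochondrial ribosomal protein genes, 3 ribosomal protein genes with other symbols and 5 ribosomal protein pseudogene symbols, of which 3 were tested and 2 fell in Lgr5+ WT enterocyte-like cells (28.8% of all genes did). Barcodes were kept as stated in the report. A cell entered a class with at least 3 marker UMIs and a marker share of at least the class minimum (20 per 10000 UMIs for stem, dividing and tuft markers, 100 for enterocyte, 500 for goblet, 1000 for Paneth and 50 for enteroendocrine markers) and at least 2 times the share in free RNA (1.3 times for Paneth), so the applied limit differed between libraries and, as given in the report, between genotypes. These limits were set after the distributions had been seen. Differentiated classes overrode dividing-like, which overrode stem-like, and barcodes with markers of several differentiated classes, 47 to 229 per library, were treated as possible doublets and left out of classes without a doublet caller. Counts were summed per library and class, and a class was fitted where each of the 4 libraries had at least 20 cells. Villus-top cells could not be fitted on their own for that reason.

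The quasi-likelihood test of edgeR 4.0.16 (limma 3.58.1, R 4.3.3) was run on all genes with TMM factors, filterByExpr and Benjamini-Hochberg adjustment at 0.05, with genotype as the term, or with class within genotype and library as a block. DESeq2 1.42.0 was an alternative. Shares were compared by the exact permutation test (Python 3.11.15, numpy 2.4.6, pandas 2.3.3, scipy 1.17.1). Tested on simulated counts for Lgr5+ stem-like cells (11347 genes), Setdb1-KO against WT, edgeR recovered 96.9% of genes changed by 2 and 70.7% of genes changed by 1 on the log2 scale, with 9 false calls. For lineage-traced stem-like cells (7080 genes) it recovered 85.9% and 26.0%, with 4 false calls. Both simulations used a fixed dispersion around a shared mean profile, without free RNA or further spread between libraries. These rates therefore need not hold for the real comparisons. Genes named in the text are the 5 with the largest and the 5 with the smallest called fold change in a comparison, the stalk, 5S RNP, ubiquitin-fused and mRNA-specific proteins, Rpsa, Rps6, the paralogs with their parents, the 5 that vary most across classes, and the nearest genes by pattern. Rps19, Rps4x, Rps12 and other parents enter only through these rules, and genes of the other lists and Rpl36al in further classes were named after their values were seen. Some genes that these rules name are not reported here.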

Additional observations from a re-analysis of the deposited data

Results flagged for a closer look

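The difference between enterocyte-like and stem-like cells differed between lineage-traced Setdb1-KO and WT for 79 of 83 ribosomal protein genes by edgeR's interaction test. At an unadjusted p under 0.05 there were 81, against 24.1% of all genes. The count of 79 fell steeply without the low-count filter or without either WT library. Villus-top cells were also unequal between the genotypes, as given in the report. In the Lgr5+ experiment the same test called 0 genes, with 0 at an unadjusted p under 0.05, against 5.39% of all genes (DESeq2 also called 0). Pseudogene symbols of ribosomal proteins, which the rule left out, held 15944 UMIs over the 8 libraries, between 0.00998% and 0.0291% of the UMIs of the ribosomal protein genes in each library.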

How the results depend on the processing

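In the Lgr5+ comparisons of genotypes DESeq2 called 2 genes and the library total 1 in all cells, and in dividing-like cells the library total called 1 and the absence of a low-count filter 2. With the library total in place of TMM, genes called higher in lineage-traced Setdb1-KO numbered 81 in all cells and 82 in Paneth-like cells, the Paneth-like class effect differed between genotypes for 80, and the genotype effect differed between experiments for 82. Genes lower than in stem-like cells then numbered 6 in dividing-like WT and 69 in enterocyte-like Setdb1-KO cells, and Rpl7l1 (-2.39) and Rps27l (-2.35) turned negative in Paneth-like WT cells. Without the low-count filter, 20 genes were called in lineage-traced enterocyte-like and 2 in Paneth-like cells between genotypes, 0 were lower in dividing-like WT and 0 in enterocyte-like Setdb1-KO cells, and the enterocyte-like class effect differed for 5. With at least 2000 UMIs per cell the first 4 of these counts were 7, 2, 3 and 39. DESeq2 gave 4 in Paneth-like cells between genotypes, 0 in dividing-like WT and 1 in enterocyte-like Setdb1-KO cells, and median-ratio size factors gave 4 in Paneth-like cells. Of the alternatives chosen after seeing the data, leaving out villus-top cells gave 1 gene between genotypes in enterocyte-like cells, and equal minimum marker shares gave 1 in Paneth-like cells between genotypes and 9 lower in enterocyte-like Setdb1-KO cells. Doubled marker limits gave 4 in dividing-like and 46 in goblet-like WT cells, and a class effect shared by the genotypes gave 9 in dividing-like and 17 in enterocyte-like WT cells, with Rpl36al at 0.014. The Setdb1-KO minus WT share in all lineage-traced cells was 8.18 points without the 50 most abundant other genes and 11.2 points as a mean over cells, and in stem-like cells 3.34 points and, after subtraction of free RNA, 2.57 points. The causes were not tested. No share of all genes called is given for these alternative settings, so their counts of called genes stand without a background.

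Leaving out each library in turn, where the lone library of a genotype is assumed to vary like the others, gave 39 to 80 genes lower in Lgr5+ WT tuft-like cells. The Lgr5+ class effect differed between genotypes for 0 to 61 genes in enteroendocrine-like and 0 to 6 in tuft-like cells, the higher counts without Lgr5+ Setdb1-KO replicate 2, and 0 to 2 genes were called between genotypes in Lgr5+ dividing-like cells. For lineage-traced Setdb1-KO against WT it gave 0 to 33 in all, 0 to 3 in stem-like, 0 to 20 in dividing-like, 0 to 81 in enterocyte-like, 0 to 25 in goblet-like and 0 to 25 in Paneth-like cells. Genes lower than in stem-like cells numbered 0 to 4 in dividing-like WT and 0 to 9 in enterocyte-like Setdb1-KO cells, the last with 2 higher and 0 lower without the first Setdb1-KO library. The class effect differed between genotypes for 0 to 76 genes in enterocyte-like and 0 to 1 in Paneth-like cells. In lineage-traced WT, Rps19bp1 in enterocyte-like cells ran from -0.996 to 0.17 and Rps25 in goblet-like cells from -0.46 to 0.030, the higher values without the first WT library. No share of all genes called is given for the fits with a library left out, so their counts stand without a background.

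The replicate numbers of the 2 genotypes gave correlations of same-numbered deviations of -0.12 to 0.35 in the Lgr5+ and 0.16 to 0.52 in the lineage-traced experiment, and with only 2 numbers they do not establish pairs. With the replicate block, 73 genes were called in lineage-traced enterocyte-like and 14 in Paneth-like cells, Rplp0 and Rpsa (2 genes) were called lower in Lgr5+ tuft-like cells (edgeR adjusted p = 9.61e-05 and 4.57e-05), and 0 in the other comparisons of genotypes. A crossed pairing of all Lgr5+ cells also called 0.

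Of all counts of called genes recomputed, 386 stayed within 1.5 times, 58 moved and 1 reversed. The 2 libraries per group, the low depth per cell of the lineage-traced libraries and their free RNA limit the comparisons of genotypes there. Counts cover a 3′ end only, and reads shared with pseudogenes or near-identical copies may be missing.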

Other observations

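Some standard genes sat at different levels in the 2 experiments. Rpl3 was at 3600 to 3976 CPM in the 4 Lgr5+ stem-like sums and at 589 to 822 CPM in the 4 lineage-traced sums, and Rpl13 at 11219 to 12126 CPM and 3542 to 5208 CPM. Rplp2 went the other way, at 3019 to 3371 CPM and 4705 to 5364 CPM. These differences cannot be told apart from the experiment.

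Mitochondrial ribosomal protein genes were also read within each genotype of the lineage-traced experiment. In enterocyte-like against stem-like cells 3 of 78 were higher and 16 lower in WT (median log2 fold change -0.34, edgeR with TMM), where 24.4% of all genes were called higher and 19.6% lower, so the genes called lower were near the background. In Setdb1-KO 27 were higher and 0 lower (0.35), against 15.5% and 9.9% of all genes. The class effect differed between genotypes for 24, each higher in Setdb1-KO, against 5.61% of all genes. Villus-top cells made up 654 of 1081 and 140 of 235 enterocyte-like cells in WT and 7 of 132 and 16 of 334 in Setdb1-KO, and their part in this result was not tested.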
